A study of Mus musculus with 6 samples.

Results

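Lef1, Tcf7, Bach2, Satb1, Foxp1 and Id3 are 6 transcription factor genes associated with naive T cells, and their RNA was followed across the lymph node cells of 7 pregnant mice. The genes were chosen by name from a count matrix of 14125 genes, and all 6 were found in it. Levels were read in the 9 cell types and the 5 CD4 T cell subsets that the submitters had assigned to the cells, in 2 nodes and 2 genotypes. By the type with the highest mean, the name of the set held for 3 of the 6 genes. Against memory cells, Bach2 was also higher in naive cells of both lineages (ratios 1.73 in CD4 and 1.62 in CD8 cells). The ratio of Satb1 was 1.78 in CD4 cells but only 1.13 in CD8 cells, with ranges overlapping there. Among the 6 types measured in single mice, Lef1, Tcf7 and Satb1 had their highest mean in CD4+ Naive T, Bach2 and Foxp1 theirs in B cells, and Id3 had its lowest means in the naive T cells. Tcf7 was higher still in the pooled cells of the Tfh subset, where 123 of its 273 UMIs came from mouse 36.

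LEF1 and TCF-1, the product of Tcf7, are related HMG-box proteins that bind DNA at the end of the Wnt pathway, where beta-catenin activates them and Groucho-type corepressors silence them, and both keep T cell identity genes in a naive or memory-precursor state. BACH2 is a repressor that competes with AP-1 factors and holds back effector genes in T cells and plasma cell genes in B cells. SATB1 organises chromatin in the T lineage, FOXP1 is a forkhead repressor that maintains quiescence in naive T cells and acts in B cell development, and ID3 carries a helix-loop-helix without a DNA-binding region, so that it captures E proteins and keeps them off DNA.

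Every dam carried a pregnancy from a BALB/c sire, was given diphtheria toxin over its first 9 days and was analysed at embryonic day 9.5. In the 4 Aire-DTR dams the toxin receptor is tied to Aire, the gene through which thymic epithelium and some peripheral cells display tissue antigens, and the 3 WT dams received the same toxin. By the phenotype label of the cells, Aire-DTR mice 7, 8 and 36 are IUGR and mouse 4, also Aire-DTR, is resorbed. Uterine-draining (udLN) and brachial (brLN) lymph node cells were multiplexed in 3 pools: mice 8 and 6 (WT) in pool 1, mice 36 and 97 (WT) in pool 2, and mice 4, 7 and 1 (WT) in pool LN. The age of the dams is not given in the sources used here, and uterine cells are not analysed here.

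The matrix listed 9427 cells, of which 2127, all from 1 well of pool LN, were second copies with identical counts. Each was used once, which left 7300 cells and 22833288 UMIs, with 48 to 1060 cells in the 14 mouse-by-node samples and a median of 2910 UMIs per cell. Across wells, 208 of 7089 distinct barcodes occurred more than once. The sort is described both as CD45+ CD3+ and as CD45+, and 2267 of the cells were B cells. Type names followed their markers in the pooled UMIs of the gene per 1000000 UMIs (CPM): Cd4 stood at 217 CPM in CD4+ Naive T against 2.53 CPM in the CD8+ naive type, and Foxp3 at 455 CPM in CD4+ Treg. CD4+ Mem T and its Early Act. CD4 subset were exceptions, since they also held Cd8b1 at 242 and 425 CPM. The summed red cell genes stood at 0 to 22.9 CPM in CD4 and CD8 T cells of pool LN and at 507 to 2438 CPM in those of pools 1 and 2, so pool was a term in every genotype fit; the part of these genes in any difference was not tested. Aire itself gave 5 UMIs in 4808 Aire-DTR cells and 3 UMIs in 2492 WT cells, so its loss could not be checked in these cells.

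The 6 genes lie on 5 chromosomes in build GRCm38 (GENCODE): Lef1 at chr3:131110471-131224356 on the plus strand, Tcf7 at chr11:52252371-52283014 (minus), Bach2 at chr4:32238804-32586108 (plus), Satb1 at chr17:51736187-51833290 (minus), Foxp1 at chr6:98925338-99522721 (minus) and Id3 at chr4:136143497-136145755 (plus). All 6 matched the RefSeq promoter table (GRCm38.p6), with 16 transcription starts. The 250 bases before each start were searched on both strands for TCAAAG, the core that TCF-1 and LEF1 bind, which 13.8% of 32851 such windows hold. Lef1 start 4 held it 2 times (180 and 120 bases before the start), Bach2 start 1 held it 93 bases before, and Foxp1 start 2 held it 204 bases before. No window of Tcf7, Satb1 or Id3 held these letters. Of 5 further motifs searched likewise, TGTGGT (RUNX, in 14.0% of windows) and TGTTTAC (forkhead, 3.17%) matched in 0 of the 16 windows. CCGGAA (ETS, 12.0%) matched in 2, CAGCTG (an E-box, 13.0%) in 3 and GGGCGG (GC box, 32.7%) in 9. The windows are not all separate: those of Lef1 starts 1 and 2 overlap and share the same GC box, and those of Satb1 starts 4 and 5 overlap too. The windows of Lef1 and Bach2 are shown because they hold the core and no exon base, whereas that of Foxp1 start 2 holds 17 exon bases. They lie inside their genes at chr3:131156044-131156293 and chr4:32417185-32417434 on the plus strand, and capitals mark the core. The counts do not tell which start was used, and a match of letters is not a binding site.
Lef1 start 4: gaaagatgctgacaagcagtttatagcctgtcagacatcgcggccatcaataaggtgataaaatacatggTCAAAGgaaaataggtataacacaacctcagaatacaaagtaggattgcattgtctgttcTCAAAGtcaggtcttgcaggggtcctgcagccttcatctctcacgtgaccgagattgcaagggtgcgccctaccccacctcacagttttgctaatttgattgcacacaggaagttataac
Bach2 start 1: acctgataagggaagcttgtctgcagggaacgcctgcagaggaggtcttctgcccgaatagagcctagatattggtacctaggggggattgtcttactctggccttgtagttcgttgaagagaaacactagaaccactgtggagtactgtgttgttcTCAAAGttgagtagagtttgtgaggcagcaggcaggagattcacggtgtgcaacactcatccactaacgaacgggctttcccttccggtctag

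Among the 6 types measured in single mice, Lef1 and Tcf7 were highest in CD4+ Naive T, lower in CD8+ Naive T, lower again in memory and regulatory T cells, and near background in B cells. Levels are CPM of the UMIs summed per mouse and type over both nodes, given where a mouse had at least 20 cells of the type. They are compared only within a gene, since they are not corrected between genes, and without a test, since the types were named from the expression of the same cells. Less RNA per cell and fewer expressing cells cannot be told apart in such sums.

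Lef1 stood at 628 ± 27.6 CPM in CD4+ Naive T (SD, n = 7 mice; 599, 614 and 666 CPM in the lowest, median and highest mouse, the order of all such triplets). In CD8+ Naive T it was 508 ± 39.2 CPM (n = 7; 454, 509, 576). All CD8+ Naive T values lay under all CD4+ Naive T values, and the ratio was 1.23. Lef1 was 267 ± 45.1 CPM in CD4+ Mem T (n = 7; 224, 254, 341), 254 ± 25.6 CPM in CD8+ Mem T (n = 6; 217, 253, 291) and 268 ± 124 CPM in CD4+ Treg (n = 6; 128, 244, 493). These 3 types overlapped each other, and the Treg range also reached into that of CD8+ Naive T. The naive to memory ratio was 2.35 for CD4 cells (higher in 7 of 7 mice) and 1.98 for CD8 cells (6 of 6 mice), with no overlap in either.

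Tcf7 had the same first and last types. It stood at 426 ± 36.6 CPM in CD4+ Naive T (n = 7; 391, 419.8, 503) and 328 ± 30.9 CPM in CD8+ Naive T (n = 7; 287, 329.8, 371), with no overlap. It was 277 ± 59.0 CPM in CD4+ Mem T (216, 267, 389.9), 249 ± 15.4 CPM in CD8+ Mem T (232, 245, 271) and 149 ± 43.9 CPM in CD4+ Treg (68.4, 156, 203). CD4+ Mem T overlapped both of its neighbours, whereas no CD4+ Treg value reached any value of the naive or memory types. The ratio of CD4+ Treg to CD4+ Mem T was 0.547 for Tcf7 (lower in 6 of 6 mice) against 1.04 for Lef1 (higher in 3 of 6). Of the 533 CD4+ Mem T cells, 117 carry the subset label of activated regulatory cells (Act. Treg), so both ratios compare mixed labels.

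In B cells Lef1 was 34.0 ± 25.6 CPM and Tcf7 25.3 ± 13.8 CPM (n = 7). Both were highest in the mice of pool LN, at 81.1, 46.9 and 43.3 CPM for Lef1 in mice 1, 4 and 7, against 6.53 to 28.6 CPM in the other mice. Among B cells with at least 1000 UMIs and no Cd3 UMI, Lef1 was 8.93 ± 3.76 CPM and Tcf7 2.69 ± 2.40 CPM (n = 7), both below their level over all B cells.

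Satb1, like Lef1, was highest in CD4+ Naive T, at 336 ± 26.0 CPM (n = 7; 283, 341, 368). CD8+ Naive T followed at 230.2 ± 17.1 CPM (207, 227, 258), below every CD4+ Naive T value. The remaining T cell types formed a chain of overlapping neighbours: CD8+ Mem T at 205 ± 21.0 CPM (172, 216, 222), CD4+ Mem T at 188 ± 29.6 CPM (133, 188, 228) and CD4+ Treg at 157 ± 26.5 CPM (119.6, 154, 203). B cells had 109.8 ± 10.3 CPM (98.8, 108, 131), and those without Cd3 UMIs 99.3 ± 13.1 CPM. The naive to memory ratio of Satb1 was 1.78 in CD4 cells (7 of 7 mice, no overlap) and 1.13 in CD8 cells (5 of 6 mice, ranges overlapping).

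**Figure D1:**
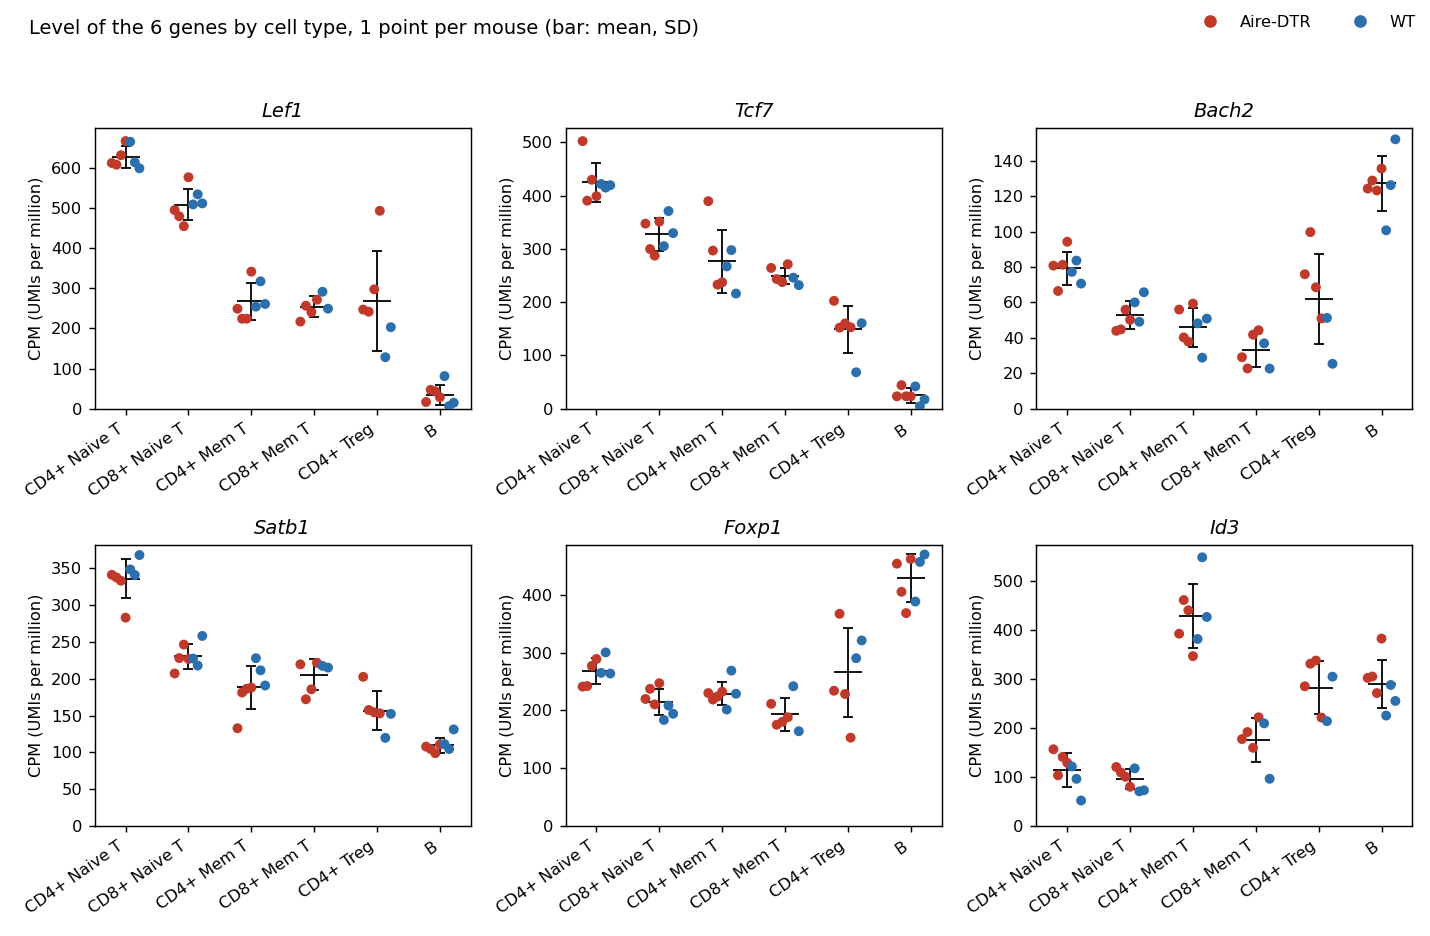
Level of each of the 6 genes (CPM, y axis, own scale per panel) by cell type, with 1 point per mouse, coloured by genotype, and bars for the mean and SD. Lef1, Tcf7 and Satb1 are highest in CD4+ Naive T, Bach2 and Foxp1 in B cells, and Id3 in CD4+ Mem T.

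Bach2 and Foxp1, the other repressors of the set, had their highest level in B cells. Bach2 was 127 ± 15.4 CPM there (n = 7; 101, 126, 152) and 79.2 ± 9.06 CPM in CD4+ Naive T (66.5, 80.8, 94.3), without overlap. It was 62.0 ± 25.5 CPM in CD4+ Treg (25.4, 59.9, 99.7), 52.8 ± 8.09 CPM in CD8+ Naive T (44.0, 50.2, 65.8), 45.9 ± 10.8 CPM in CD4+ Mem T (28.8, 48.2, 59.3) and 32.9 ± 9.48 CPM in CD8+ Mem T (22.6, 33.0, 44.3), and each of these overlapped the next. Within the T cells Bach2 still followed the naive pattern, with naive to memory ratios of 1.73 in CD4 (7 of 7 mice, no overlap) and 1.62 in CD8 cells (6 of 6 mice, ranges overlapping).

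Foxp1 was 429.5 ± 40.9 CPM in B cells (n = 7; 369, 454, 470.1). The T cell types lay below all B cell values and overlapped from one to the next: CD4+ Naive T at 269 ± 22.3 CPM (241, 265, 301), CD4+ Treg at 266 ± 76.4 (153, 262, 367), CD4+ Mem T at 229 ± 20.4 (202, 229, 269), CD8+ Naive T at 215 ± 22.5 (184, 211, 247) and CD8+ Mem T at 194 ± 28.5 (164, 184, 242). Its naive to memory ratio was 1.17 in CD4 (7 of 7 mice) and 1.11 in CD8 cells (5 of 6 mice), with ranges overlapping in both. These ratios were the nearest to 1 among the 6 genes. In B cells without Cd3 UMIs, Bach2 (132 ± 15.6 CPM) and Foxp1 (446 ± 43.1 CPM) were not lower than over all B cells.

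Id3, the E protein inhibitor, ran the other way. It was 114 ± 34.3 CPM in CD4+ Naive T (n = 7; 52.0, 121, 156) and 95.8 ± 21.2 CPM in CD8+ Naive T (70.6, 100.2, 120.2). It was 428 ± 65.5 CPM in CD4+ Mem T (n = 7; 346, 426, 548), so no CD4+ Mem T value came near a naive one, and the CD4 naive level was 0.267 of the memory level (lower in 7 of 7 mice). In CD8 cells it was 0.569 of the memory level (lower in 6 of 6 mice), and there the ranges overlapped. B cells had 289.5 ± 49.4 CPM (225, 287, 382), CD4+ Treg 282 ± 53.5 CPM (214, 295, 337) and CD8+ Mem T 176 ± 44.8 CPM (96.2, 184, 222), each overlapping its neighbour. Between the memory labels Id3 was 2.32-fold higher in CD4+ Mem T than in CD8+ Mem T (6 of 6 mice, no overlap). The CD4+ Mem T label also held 82 cells with Cd8a or Cd8b1 UMIs alone, in which Id3 was 602 CPM (pooled). The ratio is thus one of labels, not of CD4 against CD8 cells.

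The 3 small types had too few cells per mouse and are given from pooled UMIs, with exact Poisson 95% intervals that cover counting error only. In gamma delta T cells (gdT, 73 cells) Tcf7 was 436 CPM (352 to 534), Lef1 342 CPM (268 to 429.9) and Id3 323 CPM (251 to 409). In NK cells (54 cells) Lef1 was 131 CPM (86.7 to 189) and Tcf7 135 CPM (90.5 to 194). Id3 gave 2 UMIs in NK cells, or 9.32 CPM (1.13 to 33.7), the lowest level of Id3 in any type. The Myeloid type (73 cells) carried Hbb-bs at 55164 CPM, and its Lef1 level of 170.0 CPM is given without further comparison.

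The share of cells with a UMI followed the same orders once each cell was thinned to 1000 UMIs, with shallower cells left out (23 of CD4+ Naive T, 14 of CD8+ Naive T and 60 of B cells). Lef1 was found in 46.0% of CD4+ Naive T (exact binomial 95% interval 43.6 to 48.4%) and 36.6% of CD8+ Naive T (34.4 to 38.8%). It was found in 1.59% of B cells (1.11 to 2.20%), a type that should lack it; the median depths before thinning were 2918, 3463 and 2277 UMIs. Without thinning the 3 shares of Lef1 were 79.0%, 76.2% and 4.94%. Tcf7 was found in 32.7% of CD4+ Naive T and 1.40% of B cells. Id3 was found in 26.3% of CD4+ Mem T (22.6 to 30.3%), against 10.2% of CD4+ Naive T (8.83 to 11.8%) and 1.85% of NK cells.

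Few cells showed several of the 6 genes at once at this depth. A CD4+ Naive T cell thinned to 1000 UMIs had a UMI of 1.49 of the 6 genes on average, 18.2% of these cells had none and 15.8% had at least 3. The values for CD8+ Naive T were 1.15 genes, 29.3% and 9.35%. In B cells they were 0.836 genes, 38.6% and 3.08%, carried mostly by Foxp1 (33.5% of B cells), Id3 (24.9%) and Bach2 (12.8%).

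The CD4 subsets split the memory and regulatory cells further, with values for 5 mice in 3 subsets and for 2 mice in Tfh and Th17. Subset and type are separate labels: 117 of 155 Act. Treg cells are typed CD4+ Mem T, although Foxp3 was 451 CPM in Act. Treg and 461 CPM in Resting Treg. Id3 reached its highest level in Early Act. CD4, at 761 ± 113 CPM (n = 5; lowest 678, median 708, highest 948), above every value in every other subset. At 1000 UMIs, 43.3% of Early Act. CD4 cells had an Id3 UMI (36.1 to 50.7%). This subset also kept Satb1 at 318 ± 41.7 CPM (271 to 386) and Bach2 at 87.6 ± 25.3 CPM (62.2 to 120.5), overlapping CD4+ Naive T, while its Lef1 (365 ± 60.5 CPM) lay below all CD4+ Naive T values.

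Cells with CD8 coreceptor UMIs were part of the 2 groups in which Id3 was highest. Of 188 Early Act. CD4 cells, 60 had Cd4 UMIs alone and 52 had Cd8a or Cd8b1 UMIs alone, and Id3 was 627 CPM in the first (pooled, 531 to 736) and 905 CPM in the second (779 to 1046). In CD4+ Mem T, 192 cells had Cd4 UMIs alone, with Id3 at 383 CPM (339.6 to 431), and 82 had Cd8 UMIs alone, with Id3 at 602 CPM (523 to 691). Id3 was thus high in the Cd4 cells of both groups too. Bach2 stood in the opposite order within Early Act. CD4, at 133 CPM (90.9 to 188) in Cd4 cells and 39.6 CPM (17.1 to 78.0) in Cd8 cells, on 32 and 8 UMIs. All values of this split are pooled over mice. Their intervals cover counting error only and leave out the spread between mice, so no difference was tested.

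Resting and activated regulatory T cells differed in 1 direction for 5 of the 6 genes in each of the 4 mice that gave both. Satb1 was 166 ± 30.0 CPM in Resting Treg and 66.2 ± 29.0 CPM in Act. Treg (n = 5 each), a ratio of 2.86 over those 4 mice, without overlap. Lef1 (ratio 2.04), Bach2 (3.79) and Foxp1 (1.53) were also higher in the resting cells in 4 of 4 mice, with ranges that overlapped. The Bach2 ratio rests on 6, 1, 0 and 1 UMIs in Act. Treg of mice 36, 4, 7 and 1. Resting Treg of these mice held 12, 15, 10 and 4. Satb1 gave 3, 7, 7 and 3 UMIs in their Act. Treg cells. Tcf7 overlapped between them (ratio 1.05, higher in 2 of 4 mice), and Id3 was lower in resting cells in 4 of 4 mice (ratio 0.752).

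Tcf7 was higher in T follicular helper cells (Tfh) than in any other subset, at 923 CPM in mouse 36 and 438 CPM in mouse 4, both Aire-DTR. Over all 136 Tfh cells, 127 of them typed CD4+ Mem T, it was 625 CPM (553 to 704), above the pooled 431 CPM (413 to 449) of CD4+ Naive T, and 43.1% of them had a Tcf7 UMI at 1000 UMIs. Mouse 36 gave 123 of these 273 Tcf7 UMIs, and the value of mouse 4 lay within the CD4+ Naive T range (391 to 503 CPM). Lef1 was 263 and 331 CPM in the same 2 mice, below all CD4+ Naive T values, and Satb1 was 90.1 and 107 CPM. Th17 cells were nearly without Bach2, with 2 UMIs in 105 cells, or 5.04 CPM (0.611 to 18.2).

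**Figure D2:**
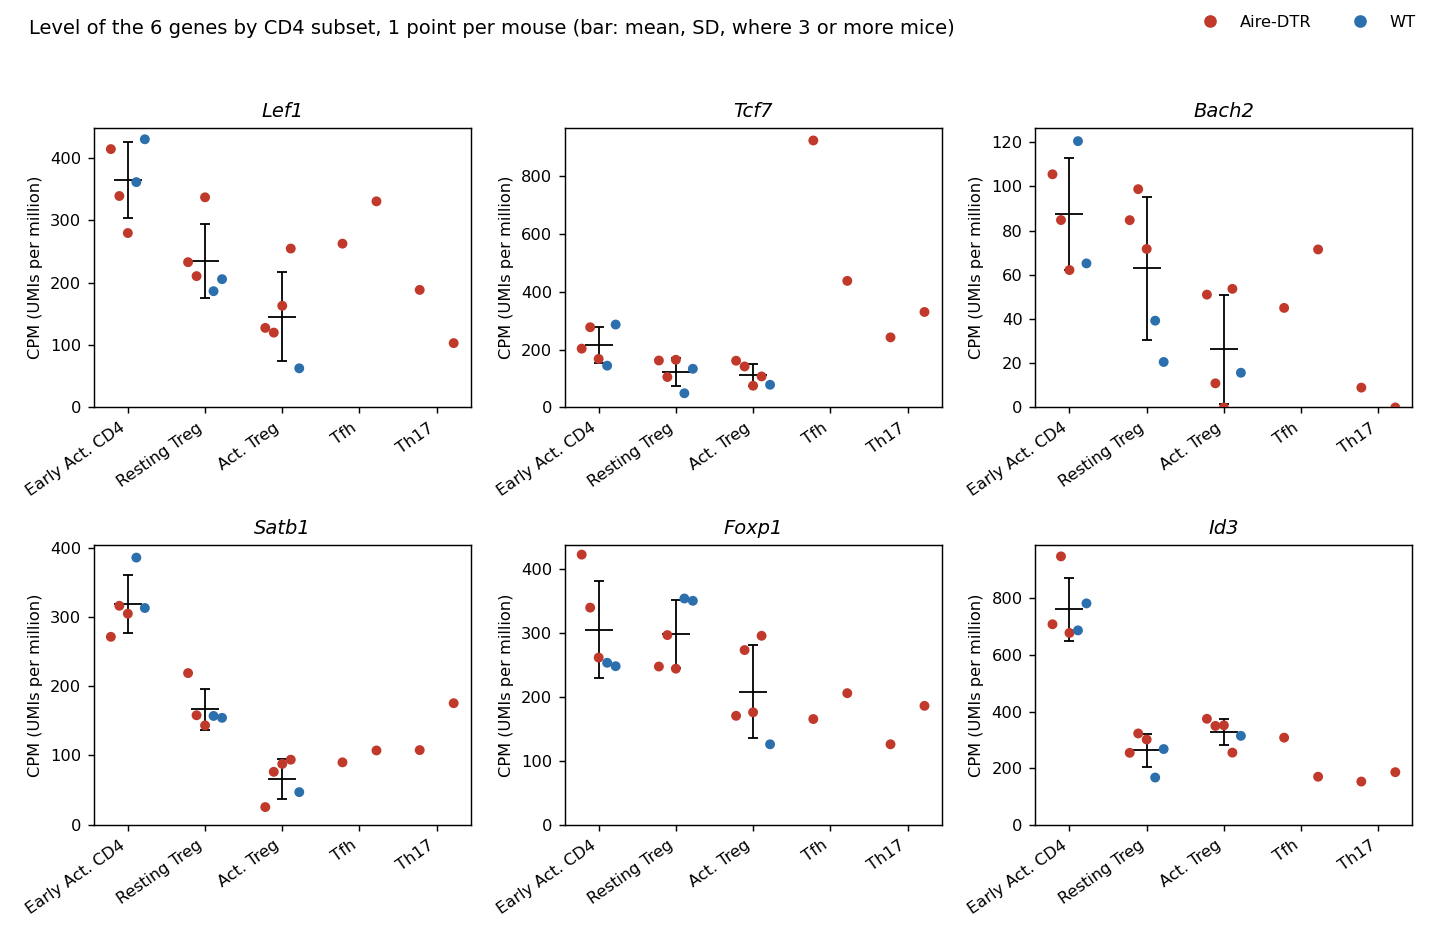
Level of the 6 genes (CPM, y axis, own scale per panel) in the 5 CD4 subsets, with 1 point per mouse that had at least 20 cells and bars for the mean and SD where 3 or more mice had a value. Early Act. CD4 holds the highest Id3 values (678 to 948 CPM) and Tfh the highest Tcf7 values (438 and 923 CPM).

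The genes closest to each of the 6 over the 9 types were named by the Pearson r of log2 CPM among 5548 genes. The 9 points share their libraries and a wide gap between T cells and B cells, so these values only describe. Lef1 was closest to Actn1, an actin crosslinker (r = 0.97), Tcf7 (0.95) and Pdlim1 (0.94). Among the genes closest to Tcf7 were Il7r, the interleukin-7 receptor chain (0.96), and Idnk (0.95). Satb1 was closest to Klhdc2 (0.97), Klhdc1 (0.93) and Acyp1 (0.91).

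Bach2 and Foxp1 were each among the other's closest genes (0.96), beside Cnp and Srebf2 for Bach2 (0.93 each) and Etnk1 (0.96) and Traf5 (0.95) for Foxp1. Id3 was closest to Ltn1 (0.95), Rbbp6 (0.94) and Usp10 (0.94), none of them among the 6. Among the 6 genes themselves, Lef1 had an r of 0.81 with Satb1, 0.05 with Id3, -0.23 with Bach2 and -0.30 with Foxp1.

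The genotype comparison asked whether the 6 genes differed between Aire-DTR and WT mice in the same node. None was called in any class tested. Counts summed per mouse, node and class went into edgeR's quasi-likelihood test with pool as a term, a call being a Benjamini-Hochberg adjusted p under 0.05 over all genes of the fit. CD4 T sum and CD8 T sum stand for all CD4 and all CD8 T cells of a sample.

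In brLN (4 Aire-DTR, 3 WT mice; 4 and 2 for CD4+ Mem T, 3 and 2 for CD4+ Treg and CD8+ Mem T), 0 of 6 genes were called in CD4 T sum, where 0.0138% of all genes were called, in CD8 T sum (0.0768%), in CD4+ Naive T (0.0169%), in CD4+ Mem T (0.0482%), in CD8+ Naive T (0.0139%) and in B cells (0.0271%). In CD4+ Treg (0.411%) and CD8+ Mem T (0.115%) Bach2 was too low to be tested, and 0 of the other 5 were called. In udLN, where WT mouse 97 had 48 cells and dropped out of the T cell fits, 0 of 6 were called in CD4 T sum (0.127%), CD8 T sum (0.0353%), CD4+ Naive T (0.136%), CD8+ Naive T (0.0625%) and B cells (0.0424%). At an unadjusted p under 0.05, edgeR gave 1 gene of the set in 8 of these 13 fits and 0 in the other 5, and DESeq2 called 0 in all 13. Over all genes, the edgeR count ran from 57 of 1460 in brLN CD4+ Treg to 398 of 7808 in brLN CD8 T sum. DESeq2 called only 0 or 1 of all genes in each fit. In simulated data the brLN CD4+ Naive T fit recovered 65% of 2-fold and 94% of 4-fold changes, and the udLN fit 35% and 80%.

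Lef1 in CD4+ Naive T of brLN was 588, 587, 616 and 508 CPM in Aire-DTR mice 36, 4, 7 and 8. It was 631, 621 and 597 CPM in WT mice 1, 6 and 97. The groups overlapped, and the log2 difference (Aire-DTR minus WT) was -0.09 (SE 0.09, edgeR adjusted p = 0.985). Tcf7 differed by 0.00 (SE 0.11), Bach2 by -0.06 (SE 0.19), Satb1 by -0.10 (SE 0.10) and Foxp1 by -0.03 (SE 0.12), all with overlapping groups.

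Id3 had the smallest p of the set in these cells. It was 159, 128, 152 and 124 CPM in Aire-DTR mice 36, 4, 7 and 8, and 128, 108 and 53.3 CPM in WT mice 1, 6 and 97. WT mouse 97 was the lowest by far and mouse 1 lay within the Aire-DTR range. The log2 difference was 0.58 (SE 0.19, edgeR unadjusted p = 0.00413, adjusted p = 0.823), in the same direction in 3 of 3 pools, and was 0.19 without WT mouse 97 and 0.19 without Aire-DTR mouse 36. These are the only mice of pool 2. With pool as a term, leaving out either takes that pool out of the contrast, so the values are 1 check.

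Bach2 in CD8+ Naive T of brLN was 42.4, 47.7, 46.2 and 62.0 CPM in Aire-DTR mice 36, 4, 7 and 8. It was 64.7, 52.5 and 68.0 CPM in WT mice 1, 6 and 97. Mouse 8 lay among the WT values, and the difference of -0.45 (SE 0.19) had an edgeR adjusted p of 0.939. In CD4+ Treg of brLN, Lef1 was 277, 256 and 266 CPM in Aire-DTR mice 36, 4 and 7 and 123 and 196 CPM in WT mice 1 and 97, without overlap. These rest on 9 to 39 Lef1 UMIs per mouse, and the difference of 0.78 (SE 0.35) had an edgeR adjusted p of 1.00. Bach2 and Satb1 did not overlap between genotypes there either, nor in CD8+ Mem T of brLN. Groups of 3 and 2 mice can part without any difference, and the share of all genes without overlap is not given here.

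In udLN, Foxp1 in CD8+ Naive T was 223, 275, 214 and 258 CPM in Aire-DTR mice 36, 4, 7 and 8 and 169 and 205.5 CPM in WT mice 1 and 6. The groups did not overlap, and the difference of 0.53 (SE 0.19) had an edgeR adjusted p of 0.641. In B cells of udLN, Id3 was 305, 317, 301 and 417 CPM in the same Aire-DTR mice and 213, 239 and 254 CPM in WT mice 1, 6 and 97. These groups did not overlap either (0.59, SE 0.17, edgeR adjusted p = 0.695), nor did those of Foxp1 in CD8 T sum of udLN. With so few mice groups can part without any difference, and the share of all genes without overlap is not given here. In brLN the difference was 0.14 for Foxp1 in CD8+ Naive T and 0.18 for Id3 in B cells.

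**Figure D3:**
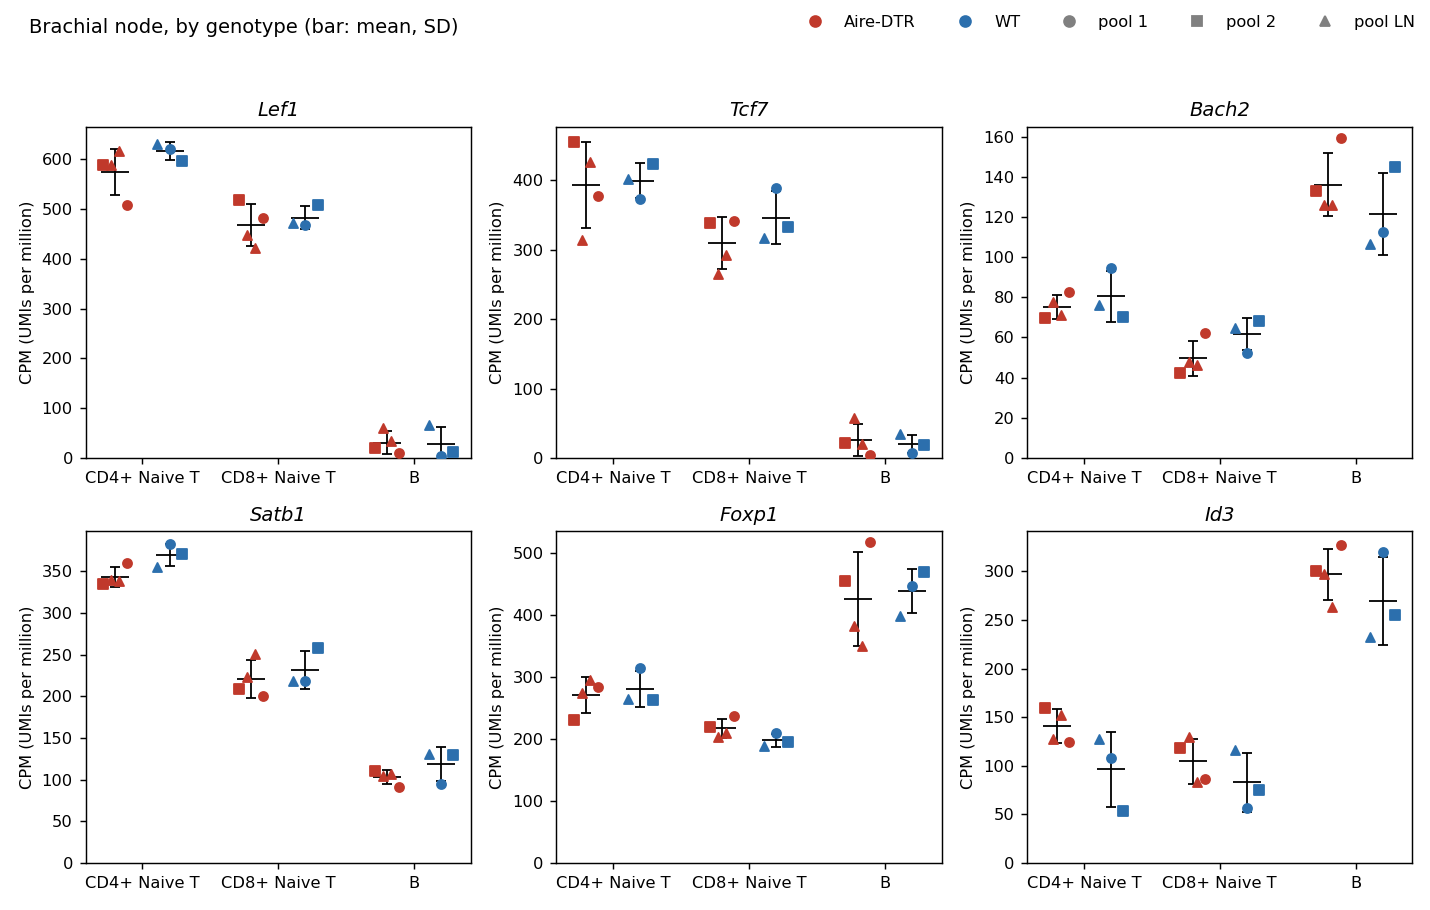
Level of the 6 genes (CPM, y axis, own scale per panel) in CD4+ Naive T, CD8+ Naive T and B cells of the brachial node, with 1 point per mouse, colour for genotype, shape for pool, and bars for the mean and SD. The genotypes overlap for every gene and type shown, and the lowest Id3 value in CD4+ Naive T (53.3 CPM) is WT mouse 97.

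The node comparison set udLN against brLN within mice (6 mice; 5 for CD4+ Mem T, 7 for B cells), with mouse as a block. Lef1 in CD8 T cells was the only one of the 6 genes called in any class. In CD8 T sum 1 of 6 genes was called, where 0.189% of all genes were called. The count was 0 of 6 in CD4 T sum (0.5%), CD4+ Naive T (0.0893%), CD8+ Naive T (0.116%) and B cells (0.0179%), and 0 of 5 in CD4+ Mem T (0.588%), where Bach2 was too low to be tested. At an unadjusted p under 0.05, edgeR gave 3, 3, 1, 0 and 2 genes of the set in these 5 classes, and DESeq2 called 0 in all 6 classes. Over all genes, in order, the edgeR counts were 525 of 6403, 263 of 4481, 265 of 5169, 235 of 5584 and 208 of 2721. DESeq2 called only 0 to 3 of all genes per class.

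Lef1 in CD8 T sum of brLN was 420.0, 404, 372 and 413 CPM in Aire-DTR mice 36, 4, 7 and 8 and 437 and 418 CPM in WT mice 1 and 6. In udLN of the same mice it was 394, 484, 501, 599.8, 549.9 and 609.9 CPM. It was higher in udLN in 5 of 6 mice, of both genotypes. In mouse 36, the only mouse of pool 2 in this fit, it was lower, which made the ranges overlap. The rise was largest in mice 8 and 6, both of pool 1, and whether it depended on pool was not tested. The log2 difference was 0.32 (SE 0.07, edgeR adjusted p = 0.0107).

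The call on Lef1 depended on mice and test: the edgeR adjusted p was 0.107 without mouse 7 and 0.0926 without mouse 8, and DESeq2 gave 0.430. Naive cells made up 76.7 to 88.2% of CD8 T cells in brLN and 79.8 to 90.8% in udLN, and their share was higher in udLN in 3 of 6 mice. Within CD8+ Naive T alone Lef1 differed by 0.26 (SE 0.07, edgeR adjusted p = 0.128), and without mouse 36 by 0.35 (adjusted p = 0.00436).

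Satb1 in CD4 T sum went the other way without being called. It was 268, 291, 294, 303, 322 and 347 CPM in brLN of mice 36, 4, 7, 8, 1 and 6, and 254, 262, 245, 167, 269.6 and 181 CPM in udLN of the same mice. All 6 mice were lower in udLN, and the difference was -0.36 (SE 0.09, edgeR adjusted p = 0.0587). The fall was by far the largest in mice 8 and 6, both of pool 1, and whether it depended on pool was not tested. The naive share of CD4 T cells was also lower in udLN in 5 of 6 mice (57.1 to 76.7% in brLN, 56.4 to 67.7% in udLN). In CD4+ Naive T alone Satb1 differed by -0.16 (SE 0.10, adjusted p = 0.868), and in CD4+ Mem T by -0.66 (SE 0.19, adjusted p = 0.162, lower in 5 of 5 mice). The part of the naive share in the difference was not tested.

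Id3 in CD4+ Mem T was 449.6, 600.0, 420.0, 397 and 513 CPM in brLN of mice 36, 4, 7, 8 and 1. In udLN it was 247, 309, 503, 309 and 268 CPM. It was lower in udLN in 4 of 5 mice, mouse 7 being the exception, and the difference was -0.63 (SE 0.16, edgeR adjusted p = 0.0858; it was called without mouse 7, at 0.00543, or mouse 8, at 0.0486). Tcf7 in CD4+ Naive T was higher in udLN in 6 of 6 mice, at 423 to 628 CPM against 315 to 455 CPM in brLN, by 0.31 (SE 0.08, edgeR adjusted p = 0.170). Bach2 and Foxp1 differed by no more than 0.27 in any class in which they were tested.

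**Figure D4:**
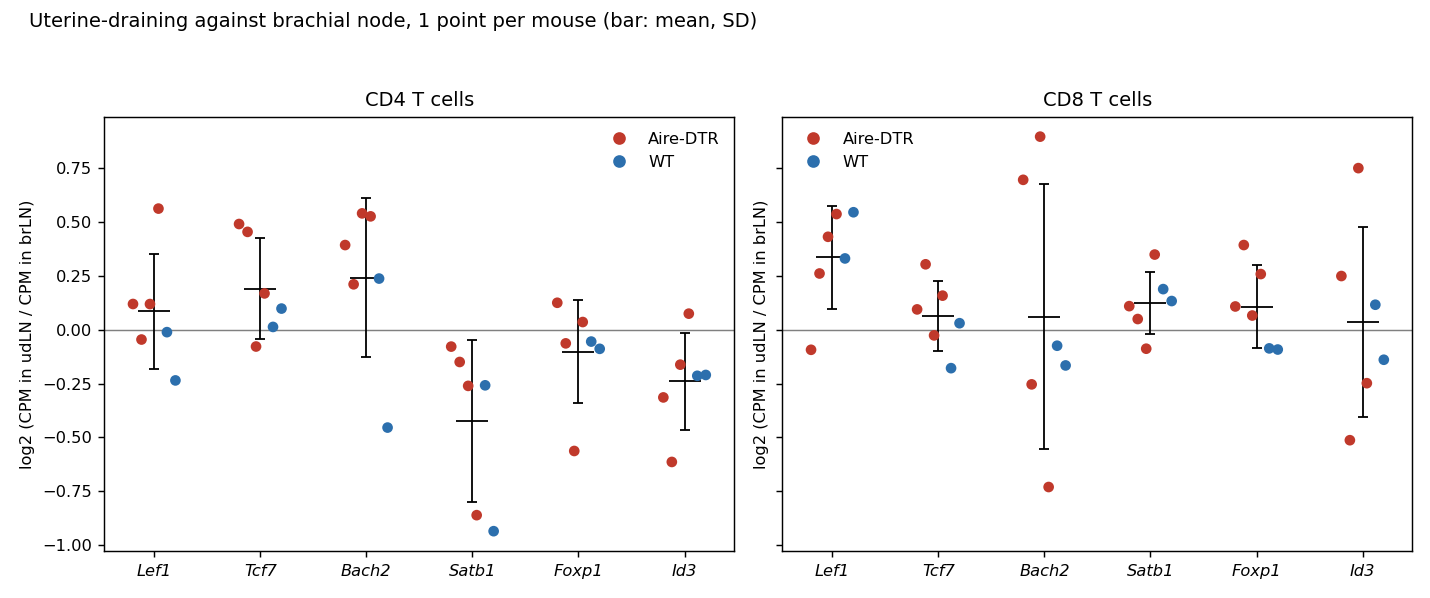
Log2 ratio of the level in udLN to that in brLN (y axis) for each of the 6 genes, in all CD4 T cells (left) and all CD8 T cells (right), with 1 point per mouse and bars for the mean and SD. Lef1 in CD8 T cells lies above 0 in 5 of 6 mice and Satb1 in CD4 T cells below 0 in 6 of 6 mice.

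Whether the genotype difference itself depended on the node was tested as an interaction. With edgeR and with DESeq2, 0 of 6 genes were called in CD4 T sum (0.0781% of all genes called), CD8 T sum (0.12%), CD4+ Naive T (0.0893%), CD8+ Naive T (0.0387%) and B cells (0.0179%), and 0 had an unadjusted p under 0.05 with edgeR. The smallest unadjusted edgeR p, 0.0583, was that of Tcf7 in CD8+ Naive T (0.37, SE 0.19). Over all genes, in order, 311 of 6403, 264 of 5831, 219 of 4481, 209 of 5169 and 220 of 5584 had such a p under 0.05. DESeq2 called 0 of all genes in each fit. These fits recovered 20% of 2-fold and 67% of 4-fold changes in simulated CD4+ Naive T data.

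A comparison of CD4 with CD8 cells that does not use the type names was made on cells with Cd4 UMIs and none of Cd8a or Cd8b1 (940 cells) and cells with Cd8a or Cd8b1 UMIs and none of Cd4 (2403 cells), all without UMIs of the B cell gene Cd79a, in 7 mice with mouse as a block. Of the 6 genes 1, Id3, was called, where 14.2% of all genes were called. Id3 was 248, 171, 162, 255, 160.2, 205 and 145 CPM in Cd4 cells of mice 36, 4, 7, 8, 1, 6 and 97. It was 156, 158, 148, 144, 142, 116 and 85.4 CPM in Cd8 cells of the same mice. Id3 was higher in Cd4 cells in 7 of 7 mice, by little in mice 4, 7 and 1, and the ranges overlapped. The difference was 0.30 (SE 0.09, edgeR adjusted p = 0.0244; DESeq2 0.0778).

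Tcf7 (0.17, SE 0.06, edgeR adjusted p = 0.0918), Satb1 (0.17, SE 0.07, adjusted p = 0.112), Bach2 (0.26, SE 0.12, adjusted p = 0.183), Lef1 (0.07, adjusted p = 0.487) and Foxp1 (0.03, adjusted p = 0.860) were not called. Satb1 lay at 262 to 336 CPM in Cd4 cells and 213 to 258 CPM in Cd8 cells, without overlap. These CPM are scaled to library totals alone, and the share of all genes without overlap is not given here. The scaling between sums matters here: scaling to library totals in place of TMM moved the median of all genes by 0.15 in log2. On that scale Lef1 (0.22), Tcf7 (0.31), Bach2 (0.41), Satb1 (0.32) and Id3 (0.45) were called and Foxp1 (0.18, adjusted p = 0.0839) was not. The median of all genes itself lay at 0.15 there. The share of all genes called on that scale is not given here, so these calls are not read as particular to the 6 genes. All 6 genes stood above 0 on both scales.

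Which cells enter also decided the calls. Restricted to cells of the naive types, Satb1 (0.43, edgeR adjusted p = 1.08e-06), Tcf7 (0.30, adjusted p = 0.000163) and Lef1 (0.26, adjusted p = 9.79e-05) were called and Id3 (0.21, adjusted p = 0.290) was not. The share of all genes called in that restricted fit is not given here. The call on Id3 was also lost without mouse 36, 6, 8 or 97, at adjusted p from 0.0654 to 0.124. Without mouse 8 Tcf7 was called instead (0.20, adjusted p = 0.0358).

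**Figure D5:**
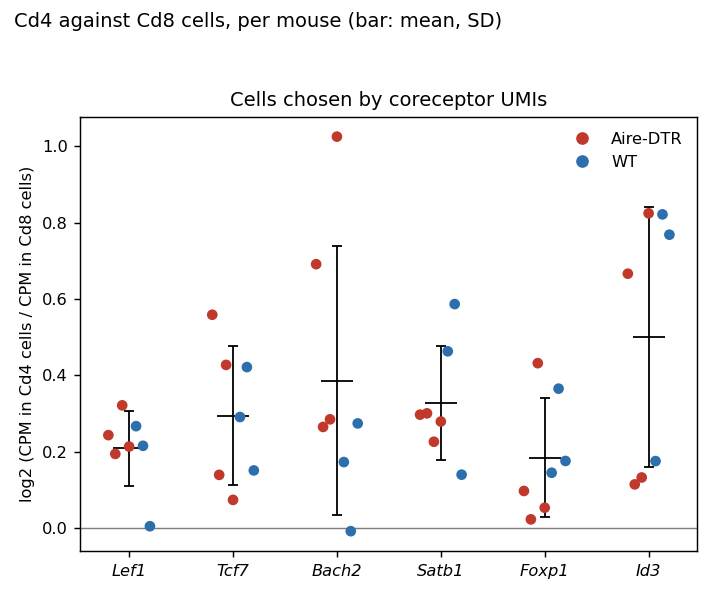
Log2 ratio of the level in cells with Cd4 UMIs to that in cells with Cd8 UMIs (y axis, from CPM without further scaling) for each of the 6 genes, with 1 point per mouse and bars for the mean and SD. All 7 mice lie above 0 for every gene shown but Bach2, for which 6 of 7 do. In the fit on library totals the median of all genes was also above 0, at 0.15.

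The partners and targets of these factors were counted from 7 lists chosen with earlier results of these data known. In the genotype fits 1 gene of these lists was called: Igfbp4, an insulin-like growth factor binding protein of naive T cells, lower in Aire-DTR in CD8 T sum of brLN (-0.50, SE 0.10, edgeR adjusted p = 0.0119). It is 1 of 11 tested genes of naive T cell surface and homing, whose median difference was -0.04 beside 0.01 over all genes. None of the genes tested from the other lists was called in any genotype fit.

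Between nodes the same naive list gave 2 genes. Klf2, the factor that drives expression of homing receptors, was higher in udLN in CD8 T sum, where Lef1 was called (0.29, SE 0.05, edgeR adjusted p = 0.000433), and in CD8+ Naive T (0.29, adjusted p = 0.000848). Dapl1 was lower in udLN in CD4 T sum (-0.63, SE 0.11, adjusted p = 0.00202) and in CD4+ Naive T (-0.54, adjusted p = 0.0129). The list's median was 0.11 in CD8 T sum (11 tested) and 0.00 in CD4 T sum (12 tested), beside 0.00 over all genes in both. No gene of the beta-catenin, E protein, Bach2, Satb and Foxp, T cell identity or effector lists was called between nodes.

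Between Cd4 and Cd8 cells, where 14.2% of all genes were called, each of the 7 lists held called genes. The beta-catenin list, with 2 of 13, was near that background. Of its genes (beta-catenin, corepressors and TCF partners), Apc, a part of the complex that destroys beta-catenin, was higher in Cd4 cells (0.71, edgeR adjusted p = 0.0244) and Bcl9l, a beta-catenin coactivator, lower (-0.83, adjusted p = 0.000112). Of 3 tested E and Id protein genes 1 was called, the E protein gene Tcf12, lower in Cd4 cells (-0.60, adjusted p = 0.0354). Of 8 Bach-related genes 2 were higher, the AP-1 genes Junb (0.37) and Batf (0.54), and of 4 relatives of Satb and Foxp 3 were higher, among them Foxp3 (1.89) and Foxp4 (0.95). The list medians were 0.17, -0.26, 0.28 and 0.63, beside 0.00 over all genes.

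The other lists held the genes that define the lineages. Of 11 T cell identity factors 7 were higher in Cd4 cells, with Zbtb7b, the CD4 lineage factor, at 3.84 and Runx1 at 1.25, and 2 were lower, with Runx3, the CD8 lineage factor, at -1.20 (list median 0.44). Of 8 effector factors 3 were higher, with Maf at 3.61, and 2 lower, with Eomes at -2.44 (median 0.29). Of 12 naive surface and homing genes 4 were higher and 4 lower, with Igfbp4 at 1.42 and Cd28 at 1.28 (median -0.02). Ly6c1, at 3.55, is uncertain because it has a near-identical copy, Ly6c2.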

How the data were processed

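Cells of 2 lymph nodes from 7 mice were profiled by droplet single-cell RNA-seq in 3 pools of 2 wells each. The authors deposited UMI counts per gene and cell, with a table of mouse, node, genotype, cell type and subset per cell. The submitters' processing notes name kallisto 0.46.1, bustools 0.40.0, Scanpy 1.7.0, Seurat and GRCm38; the role of each, and how doublets were treated, is not given in the sources used here, and no doublet caller was run. The sort is described in 2 ways, as stated with the results. Of 9427 listed cells, 2127 second copies were dropped. No column of per-sample values was left unused.

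The members and lists were chosen with earlier results of these data known. The 6 members are named throughout, with up to 3 called genes per list of smallest p and the 3 nearest genes per member (types' log2 of CPM + 2, mean of at least 20 CPM); 1 of the nearest genes is not reported here. Raw counts were summed per mouse, node and class with at least 20 cells and tested in edgeR 4.0.16 (R 4.3.3; TMM scaling, filterByExpr, quasi-likelihood F test, adjustment over all genes of a fit). Genotype fits had pool as a term and used 1 node each; node, interaction and coreceptor fits had mouse as a block, since both samples come from 1 animal. SE is the log2 difference divided by the square root of F. DESeq2 1.42.0 was an alternative. The fits were tested on simulated data in which 100 genes of each fold size had been altered. Figures used matplotlib 3.10.9. Sums held 20 cells or more and 14 samples 155098 to 3351478 UMIs; all intervals cover counting error only. Alternatives chosen after seeing the data were the copies kept, library totals without TMM, and naive types only for Cd4 against Cd8 cells.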

Additional observations from a re-analysis of the deposited data

Results flagged for a closer look

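Among 120 groups of 4 to 10 samples, 7 had an extreme sample whose gap to its nearest neighbour was large against the range of the group (Dixon's ratio at 95%), and chance gives about 1 in 20. Of these 7 groups, 4 concerned Satb1. Satb1 was highest in B cells of WT mouse 97, at 131 CPM (7 mice), and lowest in CD4+ Naive T of Aire-DTR mouse 8, at 283 CPM (7 mice). It was highest in Resting Treg of Aire-DTR mouse 36, at 219 CPM (5 mice), and, among the 4 Aire-DTR mice, in the CD8 T sum of udLN of mouse 8, at 255 CPM. Tcf7 was highest in CD4+ Naive T of Aire-DTR mouse 36, at 503 CPM (7 mice), and lowest in CD4+ Treg of WT mouse 1, at 68.4 CPM (6 mice). Id3 was highest, among the 4 Aire-DTR mice, in udLN B cells of mouse 8, at 417 CPM.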

How the results depend on the processing

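Of 347 recomputed counts of called genes of the set, 331 stayed within 1.5 times the reported count. The reported count was 0 in every fit but the node fit of CD8 T sum and the fit of Cd4 against Cd8 cells. A count of 0 that stayed 0 was taken as unchanged, so the 331 says little about how stable the calls were. Without the low-count filter 2 genes were called between nodes in CD4 T sum and 1 in CD4+ Mem T, and 0 between Cd4 and Cd8 cells. For the node comparison of CD8 T sum, DESeq2 called 0 and the stricter cell filter 0, and leaving out a mouse gave 0 to 1, as it did in CD4+ Mem T, in CD8+ Naive T and between Cd4 and Cd8 cells. Between Cd4 and Cd8 cells DESeq2 called 0, library totals 5 and cells of the naive types 3. The shares of all genes called under these alternatives are not given here, and the causes were not tested. With pool in place of mouse (no replicate block), Lef1 in CD8 T sum differed between nodes by 0.31 (edgeR adjusted p = 0.0380) and Id3 between Cd4 and Cd8 cells by 0.34 (adjusted p = 0.0477), and no count of calls changed. All 264 recomputed log2 ratios between types moved by less than 1 SD between mice. Most of these recomputations left out 1 mouse, which cannot move such a mean by 1 SD, so their outcome was fixed in advance. Over all tested differences of the 6 genes, 155 of 2024 recomputed values changed sign. Among the 320 recomputations of those with an unadjusted edgeR p under 0.05, 0 changed sign, 11 lost a call and 12 gained one. Shares of cells moved with the thinning depth in 96 of 108 recomputations. Fits of udLN by genotype for memory and regulatory cells, and of node for CD4+ Treg and CD8+ Mem T, could not be run for lack of cells.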
